A study of Mus musculus with 6 samples.

Results

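The genes described here mark the cells that line and wrap vessels. They are 38 genes of endothelial cells, which form the inner wall of blood and lymph vessels, and of pericytes, the contractile cells that sit on the outside of small vessels. Members were taken by gene symbol from a named list, and all 38 were among the 24421 symbols of the deposited expression table. RNA had been sequenced from 3 mammary gland and 3 mammary tumour samples of female FVB/NJ mice aged 5 months. The strain label of the gland donors reads FVB/NJ; Tg(LINK-A), and that of the tumour donors FVB/NJ; MMTV-Tg(LINK-A), so mice of both groups carried a transgene for the long non-coding RNA LINK-A. MMTV is the promoter of mouse mammary tumour virus, which drives a transgene mainly in mammary epithelium, and the gland label names no promoter. Tissue and strain label changed together and cannot be told apart. Nothing states that the samples of a group came from separate animals, so p-values measure the spread between these samples.

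Endothelial cells hold together through VE-cadherin and related junction proteins, and ETS family transcription factors such as Erg keep their identity genes on. In inflamed tissue they put selectins and the adhesion molecules Icam1 and Vcam1 on their surface to catch leukocytes. They also release PDGF-B, which binds its receptor on pericytes and holds these cells to the vessel. The mammary gland is embedded in a fat pad with a dense capillary bed, and a growing tumour usually takes in and remodels vessels of its host.

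Expression was read in FPKM, fragments per length of transcript and per library size, a unit in which the levels of different genes can be set side by side. Of the 38 members, 34 reached a mean of 1 FPKM or more across all 6 samples and were tested with limma. Among these 34 genes, 30 were lower in the tumours at an adjusted p below 0.05, 1 was higher and 3 did not pass. Over all 13364 tested genes, 23.1% were lower and 21.9% higher by the same rule. In the 30 lower members the gland mean was 2.52 to 11.4 times the tumour mean (median 5.10), and adjusted p ran from 8.0e-05 to 0.00286. Of these, She, Selp, Nos3, Vwf, Cspg4, Myct1 and Ptprb had tumour means below 1 FPKM, from 0.320 for She to 0.981 for Ptprb. They reached the mean for testing through their gland values, and their ratios rest on low tumour values. The median difference was -2.0 on the log2(FPKM + 1) scale for the 34 members and 0.01 for all tested genes. All fold changes below are on that scale, tumour minus gland, and it understates the change of genes with low values. The 3 tumours lay below the 3 glands for 32 members and above them for 1, against 29.0% and 29.3% of all tested genes. In whole tissue, fewer vessel cells and less RNA per vessel cell cannot be told apart.

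**Figure D1:**
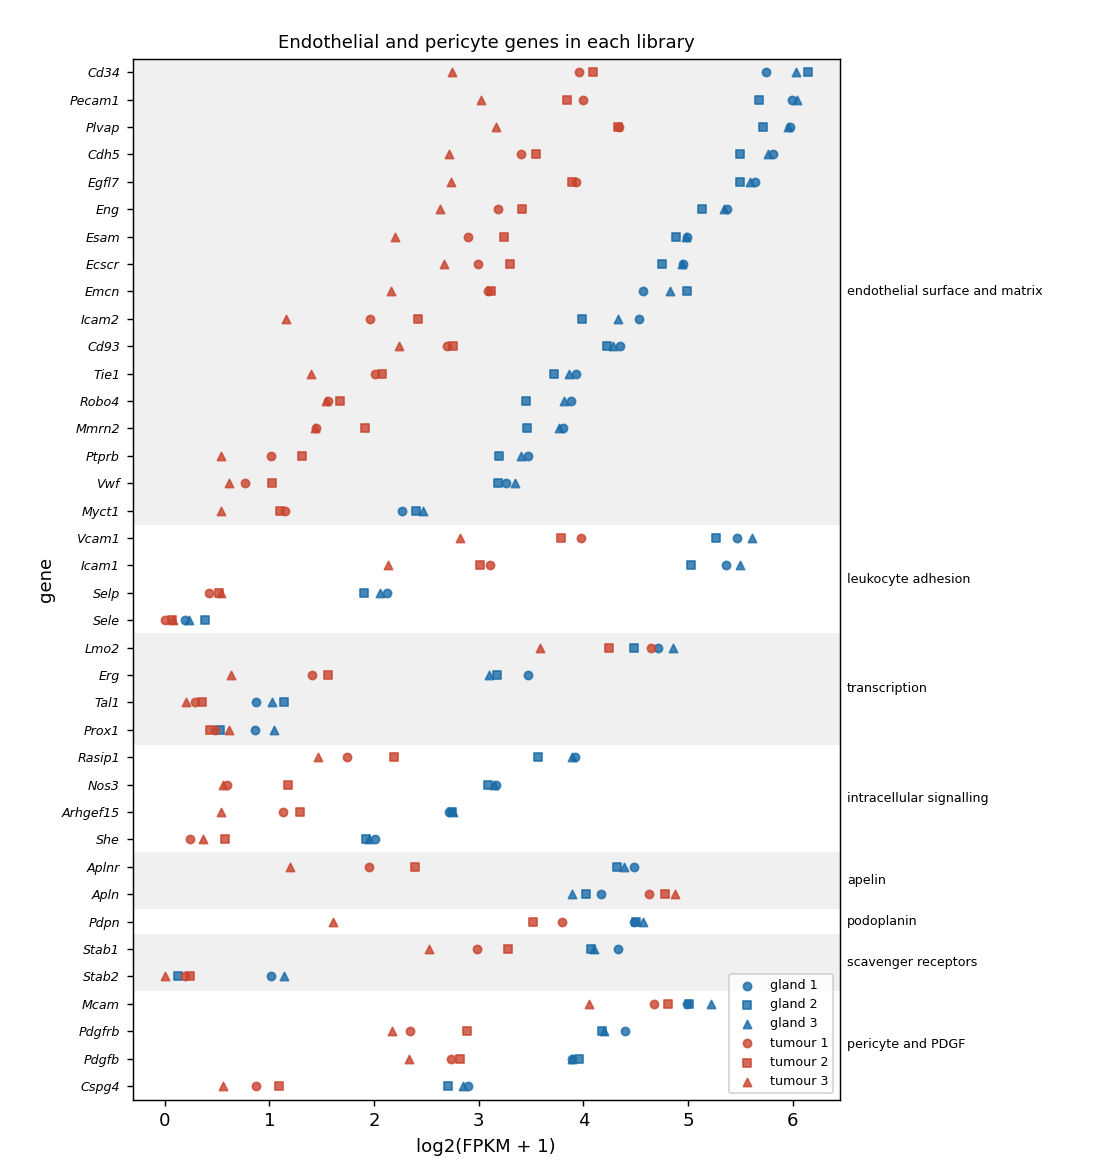
The horizontal axis gives log2(FPKM + 1), each row is 1 of the 38 genes grouped by role, blue symbols are glands, red symbols are tumours, and circle, square and triangle are libraries 1 to 3. The tumour symbols lie left of the gland symbols in most rows, with Apln on the opposite side, and the triangle of tumour 3 is the leftmost red symbol for 31 of the 34 tested genes.

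To show regulatory sequence of the members, whether or not they passed the test, the 250 bases before the annotated start were read for the members with an entry in the RefSeq promoter table (GRCm38.p6). There were 27 such windows for 21 members, some genes having several starts. No entry was read for Pecam1, Cdh5, Esam, Icam2, Cd93, Mmrn2, Ecscr, Ptprb, Plvap, Vwf, Vcam1, Lmo2, Nos3, Arhgef15, Aplnr, Pdgfb and Pdgfrb. The letters CAGGAAG, which hold the GGAA core that ETS factors bind, were searched on both strands. They were in 10 of the 27 windows (37.0%), belonging to Apln, Cd34, Egfl7, Emcn, Erg, Rasip1, Robo4, Sele and Stab1, and in 10.8% of all 32851 windows of the same length. The related letters CCGGAAG were in 0 of the 27 and in 6.91% of all windows. The GATA letters GATAA were in 18.5% against 22.6%, the E-box CANNTG in 63.0% against 66.2%, the AP-1 letters TGAGTCA in 3.70% against 4.46%, and GGGANNNCC, part of the NF-kappaB motif, in 25.9% against 15.8%. The member windows also differed in base content, with a median of 57.2% G and C against 52.4% in all windows. The part of base content in these shares was not tested. A match is a string of letters and not a shown binding site.

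The 3 members with the largest falls on the log2(FPKM + 1) scale among those with a single entry were Icam1, Cd34 and Eng. These and the 1 member that rose (Apln) are printed 5′ to 3′ in the direction of the gene. Emcn and Stab1 were added after the matches were seen, because they hold CAGGAAG and fell by different amounts. Capitals mark CAGGAAG or its reverse complement CTTCCTG, and in Eng a match to the reverse complement of GGGANNNCC. The window of Icam1 held neither.
Icam1 (chr9:21015690-21015939, plus strand): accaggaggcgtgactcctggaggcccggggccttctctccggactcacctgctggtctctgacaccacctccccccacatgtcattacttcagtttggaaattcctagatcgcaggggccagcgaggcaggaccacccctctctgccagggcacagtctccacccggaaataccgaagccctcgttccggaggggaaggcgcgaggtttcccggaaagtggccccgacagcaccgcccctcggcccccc
Cd34 (chr1:194938571-194938820, plus strand): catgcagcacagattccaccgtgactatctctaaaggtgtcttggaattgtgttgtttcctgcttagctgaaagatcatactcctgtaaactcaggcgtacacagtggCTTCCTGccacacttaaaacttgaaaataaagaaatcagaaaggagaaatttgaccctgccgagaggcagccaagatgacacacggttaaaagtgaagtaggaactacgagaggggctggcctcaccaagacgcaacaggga
Eng (chr2:32646345-32646594, plus strand): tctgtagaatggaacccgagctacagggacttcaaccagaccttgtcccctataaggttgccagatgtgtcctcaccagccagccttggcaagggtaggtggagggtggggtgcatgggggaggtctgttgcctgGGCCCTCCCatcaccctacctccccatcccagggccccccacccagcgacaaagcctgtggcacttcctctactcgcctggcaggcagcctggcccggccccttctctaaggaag
Emcn (chr3:137340828-137341077, plus strand): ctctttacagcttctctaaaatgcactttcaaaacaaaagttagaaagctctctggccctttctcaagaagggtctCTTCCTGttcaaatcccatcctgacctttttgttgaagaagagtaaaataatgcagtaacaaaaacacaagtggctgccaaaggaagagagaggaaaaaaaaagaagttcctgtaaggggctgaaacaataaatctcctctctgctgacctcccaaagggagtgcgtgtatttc
Stab1 (chr14:31168642-31168891, minus strand): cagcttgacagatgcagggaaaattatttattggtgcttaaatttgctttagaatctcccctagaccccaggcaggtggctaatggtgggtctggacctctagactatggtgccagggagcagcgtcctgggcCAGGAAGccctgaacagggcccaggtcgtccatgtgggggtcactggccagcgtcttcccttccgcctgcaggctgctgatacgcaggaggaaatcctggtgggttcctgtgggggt
Apln (chrX:48034854-48035103, minus strand): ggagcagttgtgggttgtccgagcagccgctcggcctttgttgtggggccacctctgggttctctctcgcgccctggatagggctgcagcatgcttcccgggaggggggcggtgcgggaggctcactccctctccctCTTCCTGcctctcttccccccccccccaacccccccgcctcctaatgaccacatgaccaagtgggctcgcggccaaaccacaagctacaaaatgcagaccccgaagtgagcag
The letters thus stood before genes that fell and before the gene that rose.

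The surface and matrix genes of endothelium fell together. All 17 were tested and all 17 were lower in the tumours, with a median of -2.12. Pecam1, the junction and platelet adhesion molecule also called CD31, gave 62.7, 50.2 and 64.8 FPKM in glands 1, 2 and 3, and 15.0, 13.4 and 7.10 FPKM in tumours 1, 2 and 3, the order used throughout. Its highest tumour value was far below its lowest gland value, and the difference was -2.28, SE 0.26, adjusted p = 6.5e-04. Cdh5, which encodes VE-cadherin, stood at 55.2, 44.1 and 53.3 FPKM in the glands and 9.61, 10.7 and 5.57 FPKM in the tumours, a mean 5.89 times higher in the glands (-2.47, SE 0.23, adjusted p = 2.8e-04). The other junction genes followed the same order of groups without overlap. Esam, an adhesion molecule of endothelial tight junctions, fell from 30.0 ± 1.23 to 6.15 ± 2.44 FPKM (mean ± SD, n = 3 each, difference -2.18), and Icam2, a constitutive ligand of leukocyte integrins, from 18.7 ± 3.68 to 2.82 ± 1.56 (-2.44).

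Sialomucins and receptors of the vessel wall gave like values. Cd34, a sialomucin of capillary endothelium that blood progenitors and some fibroblasts also carry, stood at 52.4, 69.6 and 64.3 FPKM in the glands and 14.6, 16.1 and 5.71 FPKM in the tumours (-2.37, SE 0.35, adjusted p = 0.00189). Tumour 3 held 37.3% of the mean of the other tumours. Emcn, the endomucin of venous and capillary endothelium, fell from 22.8, 30.8 and 27.4 to 7.53, 7.66 and 3.48 FPKM (-2.01, SE 0.27, adjusted p = 0.00134). Eng, a co-receptor for BMP9 and TGF-beta, fell from 38 ± 3.55 to 7.64 ± 2.26 FPKM (-2.21), and Tie1, the partner of the angiopoietin receptor, from 13.3 ± 1.04 to 2.62 ± 0.867 (-2.01). Cd93, a lectin-like receptor, fell by less, from 18.5 ± 0.813 to 4.98 ± 1.10 (-1.72), and its matrix ligand Mmrn2 from 11.9 ± 1.59 to 2.06 ± 0.602 (-2.08). The guidance receptor Robo4 stood at 1.95, 2.19 and 1.90 FPKM in the tumours, the smallest spread for its mean among the tumours of any tested member, against 13.7, 9.93 and 13.1 in the glands (-2.12, SE 0.16, adjusted p = 1.2e-04).

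Among the remaining surface genes, Vwf had the largest ratio of group means. Vwf, the clotting factor stored in endothelial Weibel-Palade bodies, stood at 8.57, 8.09 and 9.17 FPKM in the glands and 0.704, 1.04 and 0.527 FPKM in the tumours, 11.4 times higher in the glands (-2.46, SE 0.16, adjusted p = 8.0e-05). Ptprb, the phosphatase VE-PTP that acts on the angiopoietin receptor and VE-cadherin, fell from 9.26 ± 0.977 to 0.981 ± 0.518 FPKM, 9.44 times higher in the glands (-2.40, SE 0.22, adjusted p = 2.8e-04). Plvap, which forms the diaphragms of fenestrae and caveolae, fell from 62.0, 51.5 and 61.1 to 19.2, 19.2 and 7.98 FPKM (-1.94, SE 0.32, adjusted p = 0.00284). Tumour 3 was again lowest. Egfl7, a secreted matrix protein of sprouting vessels, fell from 46.7 ± 2.38 to 11.2 ± 4.83 FPKM (-2.06), Ecscr, a regulator of endothelial migration, from 28.5 ± 2.24 to 7.06 ± 1.74 (-1.89), and Myct1, an endothelial membrane protein, from 4.21 ± 0.362 to 0.937 ± 0.426 (-1.45). In the GENCODE annotation Egfl7 overlaps Agpat2 on the opposite strand, a lipid synthesis gene at 334 ± 24.2 FPKM in glands and 22.4 ± 3.39 FPKM in tumours. Eng likewise overlaps Fpgs, Plvap overlaps Gtpbp3, Stab1 overlaps Nt5dc2 and Nos3 overlaps Atg9b. Cdh5, Cd34, Ecscr, Selp, Rasip1 and Pdgfb also overlap other annotated genes, whose values are not given here. Use of strand in the counting is not stated, so reads in the shared stretches cannot be told apart. The means of Fpgs were 11.7 ± 0.815 and 16.7 ± 3.01 FPKM in glands and tumours, those of Gtpbp3 10.3 ± 0.256 and 9.77 ± 0.775, those of Nt5dc2 8.76 ± 0.695 and 14.0 ± 2.38 and those of Atg9b 0.579 ± 0.160 and 1.38 ± 0.393.

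Adhesion molecules for leukocytes were lower too, with all 3 tested members falling. Icam1, the integrin ligand that cytokines induce, stood at 40.1, 31.7 and 44.1 FPKM in the glands and 7.63, 7.07 and 3.38 FPKM in the tumours (-2.55, SE 0.28, adjusted p = 5.2e-04). Vcam1, the ligand of the integrin VLA-4, stood at 43.3, 37.4 and 48.0 FPKM in the glands and 14.7, 12.8 and 6.05 FPKM in the tumours (-1.92, SE 0.30, adjusted p = 0.00230). Selp, the P-selectin of Weibel-Palade bodies and platelets, fell from 3.35, 2.75 and 3.17 to 0.342, 0.429 and 0.455 FPKM (-1.54, SE 0.16, adjusted p = 4.8e-04). Unlike most members, Selp had its highest tumour value in tumour 3. Sele, the cytokine-induced E-selectin, was too low to be tested, at 0.141, 0.304 and 0.172 FPKM in the glands and 0, 0.0506 and 0.0534 FPKM in the tumours. With no filter on low values Sele had an adjusted p of 0.0610. T cells and macrophages can also carry some of these molecules. Of 6 T cell markers 5 fell, with a summed level of 156, 44.2 and 157 FPKM in the glands and 31.3, 26.3 and 3.20 FPKM in the tumours. Of 8 macrophage markers 4 fell, with sums of 748 to 840.1 FPKM in glands and 362 to 769.7 FPKM in tumours. The part of leukocytes in the result was not tested.

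The transcription factors did not move alike. Erg, the ETS factor of endothelial identity, fell from 10.1, 8.04 and 7.55 to 1.65, 1.95 and 0.55 FPKM (-2.05, SE 0.27, adjusted p = 0.00107). Lmo2, a LIM adaptor that works with Tal1 in endothelial and blood-forming cells, stood at 25.3, 21.3 and 27.9 FPKM in the glands and 24.0, 18 and 11 FPKM in the tumours. Tumour 1 lay between the glands, so the groups overlapped, and the difference did not pass (-0.53, SE 0.26, adjusted p = 0.147, 95% interval -1.15 to 0.10). Lmo2 passed without tumour 1, at -0.77 and an adjusted p of 0.0394 (range 0.0394 to 0.671 over the alternatives). Its partner Tal1 stood at 0.834, 1.2 and 1.03 FPKM in the glands and 0.222, 0.277 and 0.147 FPKM in the tumours, below the level for testing, with separate groups and an adjusted p of 0.00546 without the filter. Prox1, which sets lymphatic identity, was also untested, at 0.822, 0.443 and 1.07 FPKM in the glands and 0.398, 0.351 and 0.529 FPKM in the tumours, with overlapping groups.

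Signalling genes inside endothelial cells all fell. Nos3, the nitric oxide synthase that relaxes vessels, stood at 7.95, 7.50 and 7.84 FPKM in the glands and 0.513, 1.26 and 0.466 FPKM in the tumours, 10.4 times higher in the glands (-2.36, SE 0.20, adjusted p = 2.0e-04). Rasip1, an adaptor needed for vessel lumens, fell from 12.9 ± 1.80 to 2.55 ± 0.914 FPKM (-2.0). Arhgef15, a guanine nucleotide exchange factor, fell from 5.68 ± 0.0977 to 1.03 ± 0.519 (-1.75), and the SH2 adaptor gene She from 2.90 ± 0.123 to 0.320 ± 0.157 (-1.57).

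Apelin and its receptor moved in opposite directions. Apln, the peptide ligand made by sprouting endothelium and by other cells, stood at 16.9, 15.3 and 13.8 FPKM in the glands and 23.6, 26.5 and 28.3 FPKM in the tumours. The groups did not overlap and the mean was 1.70 times higher in the tumours (0.73, SE 0.12, adjusted p = 0.00307). It was the 1 tested member that rose (tumour mean 26.2 ± 2.37 FPKM, SD, n = 3). In GRCm38 the gene lies on chromosome X at 48025146 to 48034853, minus strand. Aplnr, its G protein-coupled receptor, stood at 21.3, 19.0 and 19.9 FPKM in the glands and 2.86, 4.23 and 1.29 FPKM in the tumours (-2.55, SE 0.29, adjusted p = 6.0e-04). On the log2(FPKM + 1) scale this was one of the largest falls of the tested members together with Icam1. Vwf, Nos3, Ptprb, She, Selp and Cspg4 had larger ratios of group means. Aplnr lies on chromosome 2 at 85136225 to 85139923, plus strand. Without glands 1 and 3 together, which left 1 gland, Apln stood at 0.73 and lost its call (adjusted p = 0.0743, range 0.00271 to 0.0743 over the alternatives), and Aplnr lost its call as well (range 1.4e-04 to 0.0609).

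Lymphatic and scavenger genes were more uneven. Pdpn, the podoplanin of lymphatic endothelium, fibroblasts and basal epithelium, stood at 21.4, 21.7 and 22.8 FPKM in the glands and 12.9, 10.4 and 2.05 FPKM in the tumours. All tumours lay below the glands, and tumour 3 held 17.6% of the mean of tumours 1 and 2. The difference narrowly missed the threshold (-1.55, SE 0.53, adjusted p = 0.0511), and without tumour 3 it was -0.87 with an adjusted p of 0.00175 (range 0.00175 to 0.358 over the alternatives). It also passed without tumour 1, with the replicate block, under quantile normalization and at a common sum. The basal keratins Krt5 and Krt14, which other cells that carry Pdpn express, were likewise lowest in tumour 3, at 92.9, 91.0 and 34.3 FPKM for Krt5 and 137, 133 and 39.7 FPKM for Krt14, and their part in the result was not tested. Stab1, the scavenger receptor stabilin-1 of sinusoidal endothelium and tissue macrophages, fell from 19.2, 15.8 and 16.2 to 6.90, 8.68 and 4.76 FPKM (-1.24, SE 0.20, adjusted p = 0.00286). Its relative Stab2, a hyaluronan receptor of sinusoids in liver, spleen and lymph node, was untested. Stab2 stood at 1.03, 0.0887 and 1.2 FPKM in the glands and 0.146, 0.184 and 0 FPKM in the tumours. Gland 2 thus lay among the tumours. The summed level of 5 lymph node stroma markers was 83.7, 22.8 and 91.2 FPKM in the glands, also lowest in gland 2, and 12.1, 13.5 and 0.134 FPKM in the tumours, where 1 of the 3 tested markers was lower, and the part of lymph node in the values of Stab2 was not tested.

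The PDGF-B axis of pericytes fell at both ends. Pdgfb, the ligand that endothelium releases, stood at 13.9, 14.5 and 13.8 FPKM in the glands and 5.66, 6.07 and 4.03 FPKM in the tumours (-1.28, SE 0.15, adjusted p = 7.9e-04). Pdgfrb, its receptor on pericytes and fibroblasts, fell from 20, 17.1 and 17.4 to 4.08, 6.39 and 3.51 FPKM (-1.79, SE 0.20, adjusted p = 5.7e-04). The pericyte proteoglycan gene Cspg4, which encodes NG2, fell from 6.45, 5.53 and 6.21 to 0.830, 1.13 and 0.467 FPKM, 7.49 times higher in the glands (-1.98, SE 0.18, adjusted p = 2.9e-04). Mcam, the adhesion molecule CD146 of endothelium, pericytes and smooth muscle, was the exception at 30.7, 31.1 and 36.3 FPKM in the glands and 24.5, 27 and 15.6 FPKM in the tumours. The tumours lay below the glands, and the difference did not pass (-0.56, SE 0.21, adjusted p = 0.0627, 95% interval -1.05 to -0.07). Mcam passed without tumour 2, at -0.71 and an adjusted p of 0.0473, under quantile normalization and at a common sum (range 0.0292 to 0.407 over the alternatives).

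**Figure D2:**
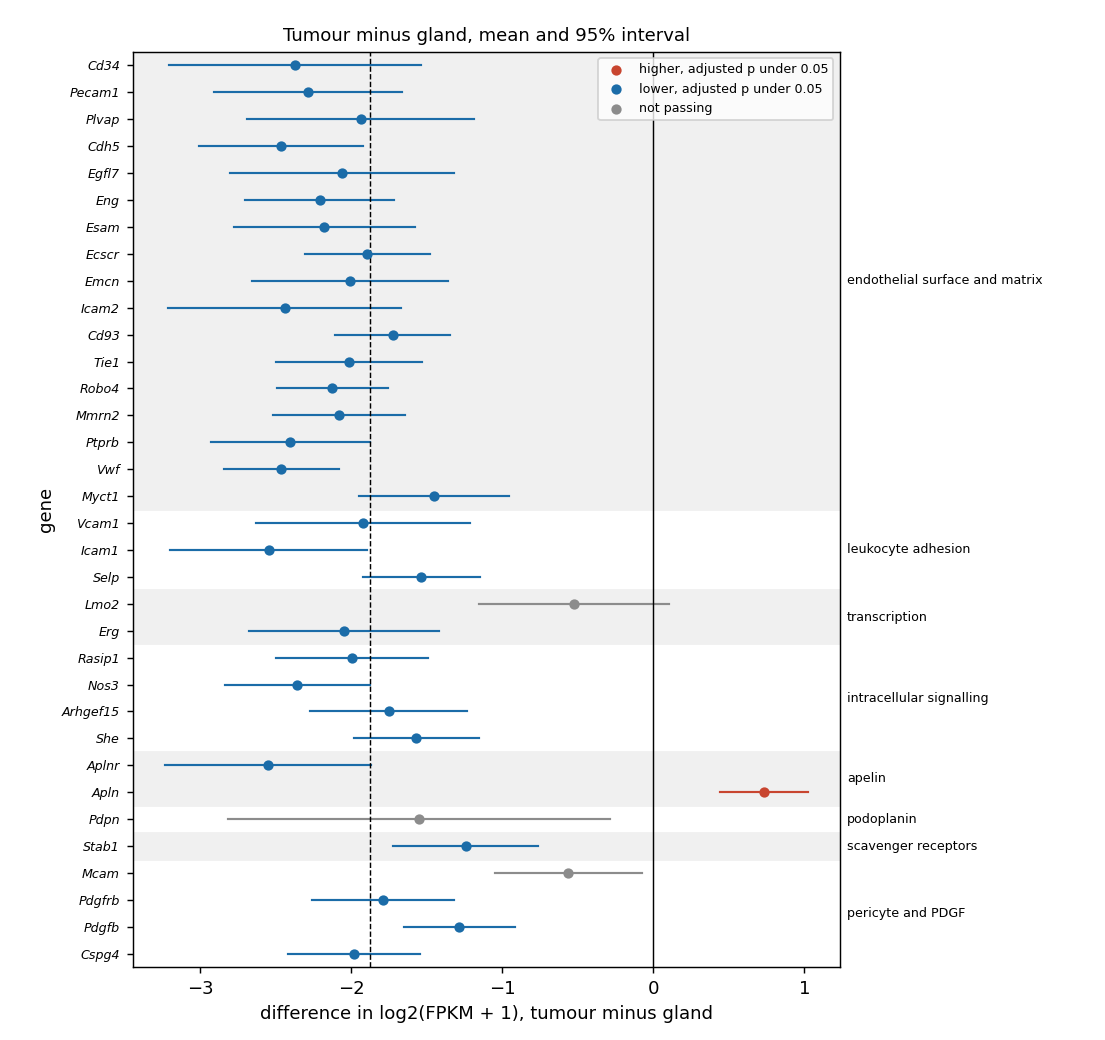
The horizontal axis gives the difference in log2(FPKM + 1), tumour minus gland, for the 34 tested genes with 95% intervals from limma, blue for lower, red for higher and grey for not passing. The dashed line at -1.88 is the mean of 21 other endothelial genes, and Lmo2, Mcam and Apln lie farthest to its right.

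Leaving out 1 library at a time gave 30 to 32 members lower and 1 higher. Glands 1 and 3 had higher sums of lymph node stroma markers (83.7 and 91.2 FPKM) than gland 2 (22.8 FPKM). Their sums of T cell markers were also higher, at 156 and 157 FPKM against 44.2 FPKM. Gland 2 had the highest sum of skeletal muscle markers. Leaving out glands 1 and 3 together gave 13 lower and 0 higher (790 and 1262 of all tested genes were then higher and lower), and 18 members lost their call. The members that lost it were Pecam1, Esam, Icam2, Emcn, Cd34, Plvap, Myct1, Egfl7, Icam1, Vcam1, Erg, Rasip1, Arhgef15, Apln, Aplnr, Stab1, Pdgfb and Pdgfrb, each with its direction kept.

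Tumour 3 held the lowest tumour value of 31 of the 34 tested members, against 39.4% of all tested genes. Its level was 52.3% of the mean of tumours 1 and 2 at the median member (range 17.6% to 118%) and 100.3% at the median of all tested genes. The mean log2(FPKM + 1) of 21 other pan-endothelial genes was also lowest in tumour 3, at 1.68, 1.82 and 1.40. These genes were mixed, and Flt1, Sox7, Notch4 and Calcrl among them were highest in tumour 3. Without tumour 3, 31 members were lower and 1 was higher. Summed fibroblast markers were lowest there too, at 396, 469 and 134 FPKM, as were adipocyte markers at 151, 167 and 65.9 FPKM and macrophage markers at 769.7, 642 and 362 FPKM. The sums of T cell, basal epithelium, neutrophil, platelet, erythroid and lymph node stroma markers were also lowest in tumour 3. Luminal epithelium markers summed highest in tumour 3, at 2936, 2861 and 3194 FPKM, as did mast cell and skeletal muscle markers. The part of cell mixture in the values of tumour 3 was not tested. In the glands the lowest value of 25 of the 34 members was in gland 2, and the share over all tested genes was not counted. Gland 2 had the highest sum of 4 skeletal muscle markers, at 12.5, 10361 and 918 FPKM, and without gland 2 the members gave 30 lower and 1 higher. The median coefficient of variation of the tested members was 9.74% in the glands and 37.5% in the tumours.

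Other vascular genes, from 9 lists of 87 genes of which 79 were tested, gave 63 lower, 7 higher and 9 not passing, with a median of -1.78. Pan-endothelial genes beside the members gave this count: 20 of 21 fell, 1 did not pass, and the median was -2.08. The VEGF receptor gene Kdr fell from 19.0 ± 1.78 to 2.44 ± 0.623 FPKM (-2.55), the repressor Bcl6b from 6.52 ± 0.212 to 0.779 ± 0.0804 (-2.08) and the GTPase gene Rhoj from 22 ± 1.13 to 7.05 ± 0.580 (-1.52). Sox7, a transcription factor of the SoxF group, did not pass (-0.67, SE 0.27, adjusted p = 0.0811), and passed without tumour 3 (adjusted p = 0.0242, range 0.0242 to 0.580 over the alternatives). The 8 genes of the capillary list all fell, with a median of -3.22. Car4, a carbonic anhydrase of capillary endothelium, stood at 8.21, 10.1 and 10.6 FPKM in the glands and was listed at 0 in all 3 tumours. Cd300lg, a capillary and venule receptor for trafficking lymphocytes, fell from 45.7 ± 5.86 to 2.77 ± 1.26 FPKM (-3.69), and Rgcc, a cell cycle regulator high in capillaries, by 1.78. The water and glycerol channel gene Aqp7, which adipocytes also express, fell from 20.7 ± 2.86 to 0.345 ± 0.327 (-4.03).

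Venous and arterial genes went both ways, and no lymphatic gene rose. Of 5 tested venous and high endothelial genes 3 fell and 2 rose. Madcam1, the addressin for gut and lymph node homing, fell from 14.7 ± 2.70 to 0.235 ± 0.247 FPKM (-3.67), and the chemokine-binding receptor Ackr1 of venules from 8.37 ± 1.54 to 0.909 ± 0.444 (-2.31). Lrg1, a secreted glycoprotein of venules that is also an acute phase product of neutrophils and epithelium, rose from 33.6 ± 3.46 to 351 ± 110.3 FPKM (3.29). Of 5 tested arterial genes 4 fell and 1 rose. The arterial guidance gene Sema3g fell from 5.43 ± 0.573 to 0.233 ± 0.0776 FPKM (-2.38), and the Notch target Hey1, which other cells also express, rose from 2.71, 3.26 and 3.29 FPKM to 19.9, 21.3 and 72.8 (3.0, SE 0.46, adjusted p = 0.00229). Of 6 tested lymphatic genes 4 fell and 2 did not pass. The matrix protein gene Reln fell from 2.26, 1.81 and 2.85 to 0, 0.0501 and 0 FPKM (-1.69) and the hyaluronan receptor Lyve1 from 12.3, 7.34 and 11.1 to 2.84, 3.23 and 0.300 (-2.0), while the VEGF-C receptor Flt4 did not pass (-0.60, SE 0.25, adjusted p = 0.0948) except without tumour 2 (adjusted p = 0.0256, range 0.0256 to 0.634 over the alternatives).

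Genes of sprouting tip cells and basement membrane split as well, with 6 of 10 lower, 2 higher and 2 not passing. The collagen IV gene Col4a1 fell from 147 ± 17.6 to 35.7 ± 4.37 FPKM (-2.01), the laminin gene Lama4 from 27.5 ± 0.258 to 9.31 ± 1.39 (-1.47), and the Tie2 ligand Angpt2 from 8.33 ± 1.13 to 2.43 ± 0.163 (-1.44). Esm1, the endocan of tip cells, stood at 2.16, 2.14 and 2.97 FPKM in the glands and 3.08, 2.68 and 3.31 FPKM in the tumours and did not pass (0.24, SE 0.16, adjusted p = 0.274). With quantile normalization it passed, at an adjusted p of 0.0141 (the alternatives gave 0.0141 to 0.513). The placental growth factor gene Pgf (2.44) and the potassium channel subunit gene Kcne3 (2.75) rose and were named after their values were seen, as were the ephrin receptor gene Ephb4 (0.63) and the aminopeptidase gene Anpep (1.08) of the lists around them. Of 13 further pericyte genes 9 fell, 1 rose and 3 did not pass. Rgs5, a regulator of G protein signalling and a widely used pericyte marker, fell from 56.1, 51.2 and 52.8 to 10.4, 9.88 and 7.91 FPKM (-2.39, SE 0.12, adjusted p = 3.7e-05), and the forkhead gene Foxs1 from 19.8 ± 0.883 to 1.13 ± 0.672 (-3.34). The soluble guanylate cyclase genes, listed as Gucy1a3 and Gucy1b3, which sense nitric oxide in mural cells, fell by 2.22 and 2.16. Notch3, the Notch receptor of mural cells, stood at 13.0, 9.25 and 12.3 FPKM in the glands and 5.53, 9.45 and 20.6 FPKM in the tumours (-0.13, SE 0.41, adjusted p = 0.824).

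In the smooth muscle list 5 of 6 fell and Smtn did not pass (0.11, SE 0.18, adjusted p = 0.639). Acta2, smooth muscle actin, fell from 339, 312 and 349 to 48.4, 41.8 and 12.4 FPKM (-3.45) and Myh11, smooth muscle myosin, from 49.0, 36.8 and 44.7 to 2.42, 3.61 and 0.269 (-4.02). Myoepithelial cells of the gland express both, and Oxtr, a gene of those cells named after its values were seen, stood at 31.5, 25.3 and 28.2 FPKM in the glands and 2.06, 2.53 and 1.23 FPKM in the tumours. Oxtr is from the basal epithelium list, in which only 1 of 5 markers was lower and 4 did not pass. The median difference of that list was 0.02. The part of myoepithelium in the result was not tested. Among the 5 other PDGF genes, Pdgfa, Pdgfd, Pdgfrl (named after its values were seen) and the fibroblast receptor Pdgfra fell, and Pdgfc rose. Pdgfra fell from 26.3 ± 1.03 to 1.80 ± 1.11 FPKM (-3.38), Pdgfd from 8.35 ± 0.990 to 0.912 ± 0.373 (-2.30), and Pdgfc rose from 14.1 ± 1.36 to 25.6 ± 3.82 (0.81). Without glands 1 and 3 together, 35 genes of the 9 lists were lower and 2 higher, and 33 lost their call, among them Hey1, Lyve1, Acta2, Myh11, Pgf, Anpep, Ephb4 and Pdgfc. Ephb4 also lost its call without any 1 of the glands and without tumour 2 (adjusted p 0.00936 to 0.224 over the alternatives), and Pdgfrl without gland 2 and without gland 3 (0.0110 to 0.162).

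Markers of other cells moved in the same samples. All 8 adipocyte markers were lower in the tumours, with summed levels of 3402 to 4446 FPKM in glands and 65.9 to 167 FPKM in tumours. All 10 fibroblast markers were lower too, at 2081 to 2262 FPKM and 134 to 469 FPKM. All 8 luminal epithelium markers were higher, at 1055 to 1119 FPKM in glands and 2861 to 3194 FPKM in tumours. Of 5 tested mast cell markers 4 fell, with sums of 146 to 182 FPKM in glands and 28.0 to 30.7 FPKM in tumours. Platelets also hold Selp and Vwf, and of 3 tested platelet markers 2 fell and 1 rose, and the sums were 31.7 to 45.2 FPKM in glands and 5.39 to 15.3 FPKM in tumours. In other lists, basal epithelium summed to 195 to 206 FPKM in glands and 101 to 267 FPKM in tumours with 1 of 5 lower, erythroid markers to 1930.2 to 4213 and 384 to 1103 with 1 of 3 lower, and neutrophil markers to 25.0 to 45.1 and 269 to 3161 with 1 of 4 higher. No marker was at 0 in all 6 libraries, while Cd3d of the T cell list was among those listed at 0 in at least 1 tumour. The part of cell mixture in the falls was not tested.

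**Figure D3:**
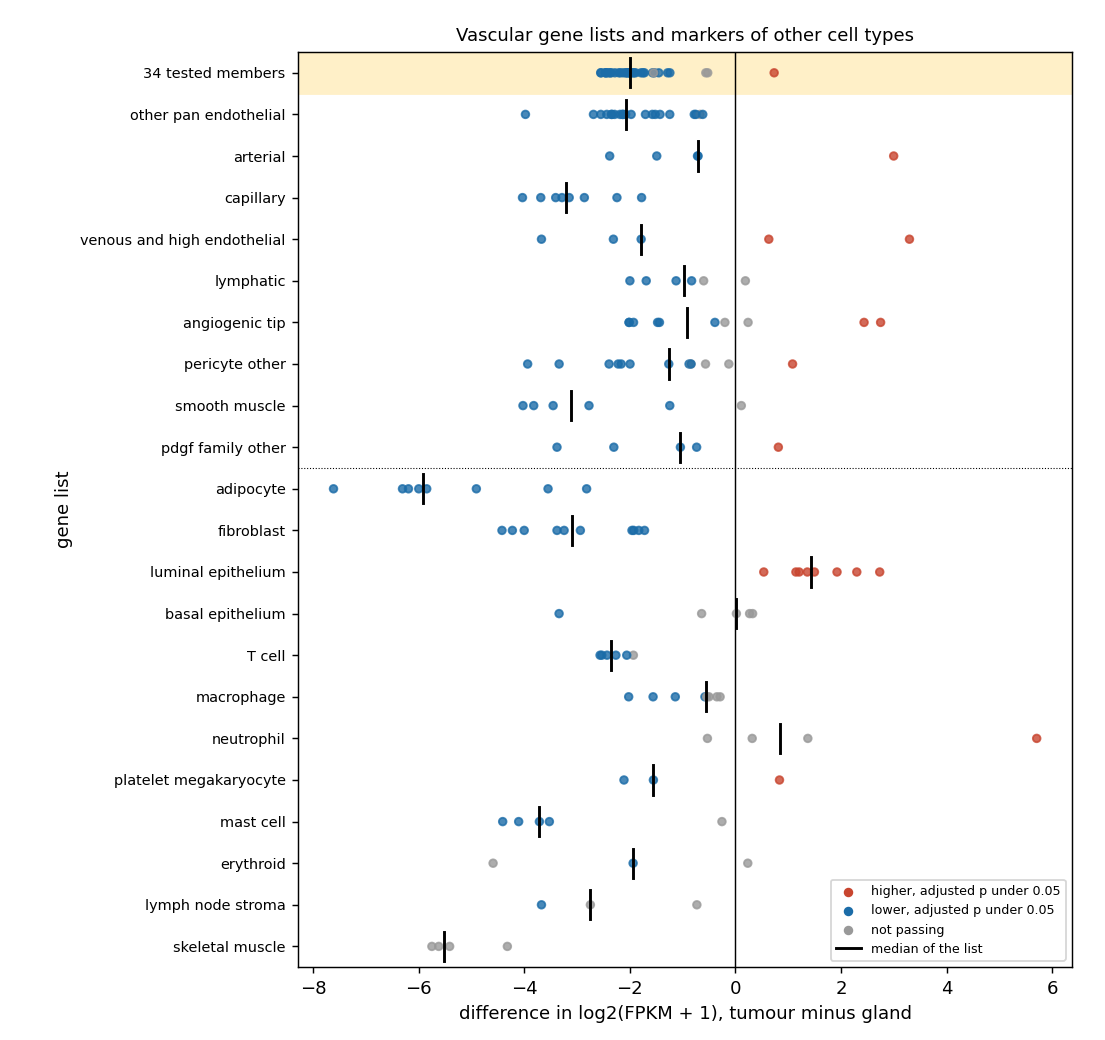
Each point is 1 tested gene, placed by its difference in log2(FPKM + 1), tumour minus gland, in rows for the 34 tested members, the 9 vascular lists and, under the dotted line, markers of other cell types; black bars are list medians. The members centre at -2.0, adipocyte and fibroblast markers lie to the left of 0, and luminal epithelium markers lie to the right of it.

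To set the members against other endothelial genes, the mean log2(FPKM + 1) of the 21 other pan-endothelial genes was subtracted in each library. This mean fell by 1.88 from gland to tumour. The 21 genes did not fall alike, with differences from -0.62 for Acvrl1 to -3.98 for Cldn5. Relative to their own mean, 5 of the 21 were higher in the tumours, 6 were lower and 10 did not pass. Relative to the same mean, 5 members were higher in the tumours, 6 were lower and 23 did not pass, where 86.8% and 3.0% of all tested genes were higher and lower. The 5 higher members were Apln (2.61, SE 0.20, adjusted p = 4.2e-06), Lmo2 (1.35, SE 0.22, adjusted p = 2.7e-04), Mcam (1.32, SE 0.17, adjusted p = 5.9e-05), Stab1 (0.64, SE 0.17, adjusted p = 0.00546) and Pdgfb (0.59, SE 0.16, adjusted p = 0.00651). Stab1 and Pdgfb lost this call without glands 1 and 3 together, and Apln, Lmo2 and Mcam kept theirs under all 15 alternatives. The 6 lower members were Aplnr (-0.67, SE 0.22, adjusted p = 0.0155), Icam1 (-0.67, SE 0.21, adjusted p = 0.0142), Cdh5 (-0.59, SE 0.17, adjusted p = 0.00985), Vwf (-0.58, SE 0.18, adjusted p = 0.0124), Ptprb (-0.53, SE 0.19, adjusted p = 0.0247) and Nos3 (-0.48, SE 0.20, adjusted p = 0.0459). Each of these lost its call under 3 or more alternatives, and 2 members were lower without gland 3 and 3 without gland 1. Cspg4 (-0.10, SE 0.18, adjusted p = 0.608) and Pdgfrb (0.09, SE 0.17, adjusted p = 0.637) did not pass relative to this mean. The scale understates the change of genes with low values, so these relative values do not rank genes of unlike level. She, with a mean 9.06 times higher in the glands, stood at 0.31, and Cdh5, 5.89 times higher, at -0.59.

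**Figure D4:**
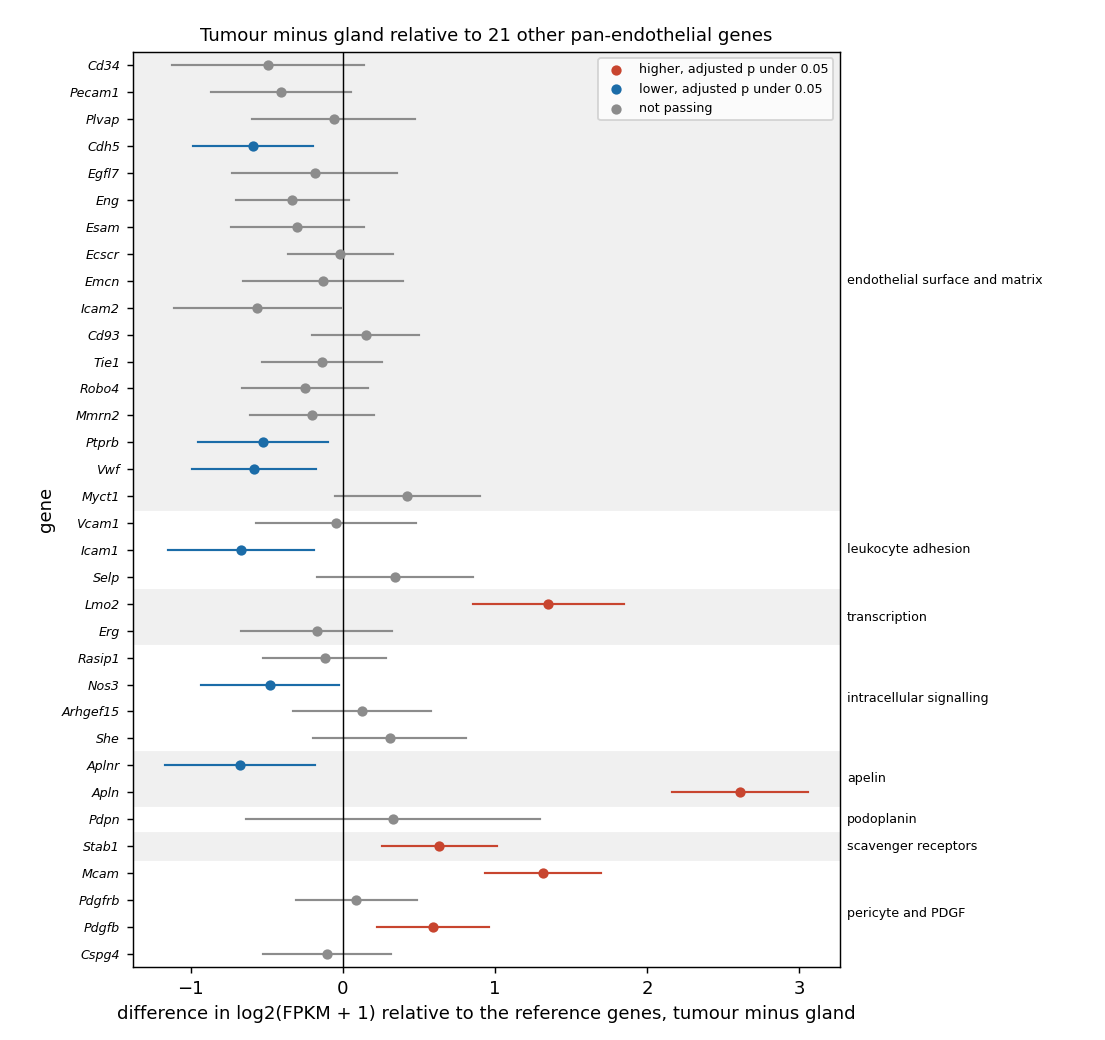
The horizontal axis gives the difference in log2(FPKM + 1), tumour minus gland, after subtraction of the mean of 21 other pan-endothelial genes in each library, with 95% intervals from limma for the 34 tested members. Most points lie near 0, Apln lies at 2.61, and Lmo2 and Mcam lie at 1.35 and 1.32.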

How the data were processed

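RNA from 3 mammary glands and 3 mammary tumours was sequenced. The submitters' processing notes name HISAT2, StringTie and the build mm10, without versions, and no annotation. The deposited table names no unit. Its values were taken as FPKM computed by the authors, since they were not whole, were never negative and summed to between 486080 and 582996 per library. The table holds no read counts, so absolute depth is unknown and counting error did not enter the tests. Between 15000 and 16643 genes lay above 0 per library.

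Groups came from the titles. Genes whose mean reached 1 FPKM were tested on log2(FPKM + 1), a pseudocount of 1, with limma 3.58.1 (R 4.3.3, mean-variance trend, 2-sided, Benjamini-Hochberg adjustment over all 13364 tested genes, threshold 0.05). The code was run on simulated data with independent normal noise, to see that planted changes were found with the right sign. The rate of false calls was not part of that check. The fit relative to 21 pan-endothelial genes was chosen after seeing the data. Overlaps came from GENCODE M21.

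Members and gene lists were chosen with earlier results of these data known. All 38 members are named, and of other vascular lists the 4 with the smallest p among those that passed and the 2 with the highest mean among the others, or fewer, with exceptions marked where they stand. The alternatives were a pseudocount of 0.1, no filter, a mean of at least 5 FPKM, quantile, median-of-ratios and common-sum scaling, the replicate block, no trend, each library left out, and glands 1 and 3 left out together. A list of cell markers is not reported here.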

Additional observations from a re-analysis of the deposited data

How the results depend on the processing

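None of the 34 tested members changed direction under the 15 alternatives, of which a mean of at least 5 FPKM covered 26 members. Among the members, 30 were lower and 1 higher, and all alternatives except 2 gave 30 to 32 lower and 1 higher. That mean left fewer members to test and gave 22 lower and 1 higher, and leaving out glands 1 and 3 together left 1 gland, assumed to vary like the tumours, and gave 13 lower and 0 higher. Leaving out 1 library at a time gave 2049 to 3130 genes higher and 2258 to 3241 lower over all tested genes, against 2933 and 3090, and 6 to 7 higher and 53 to 64 lower in the other vascular lists, against 7 and 63. A mean of at least 5 FPKM gave 1864 genes lower over all, and 41 in the other vascular lists. Without glands 1 and 3, 790 genes were higher and 1262 lower over all, and 2 and 35 in those lists. Relative to the 21 pan-endothelial genes, 5 members were higher (5 to 7 without 1 library, 9 with no filter, 3 without glands 1 and 3) and 6 lower (2 to 7 without 1 library, 3 with a pseudocount of 0.1, 0 at a mean of at least 5 FPKM, which also shortened the reference, 10 under quantile normalization, 0 without glands 1 and 3). With the replicate number as a replicate block, 31 members were lower (Pdpn was added) and 1 higher, and 3 were lower relative to the reference. The labels do not pair the samples, and same-numbered libraries did not deviate together (r = -0.0541, -0.118 and -0.124 across genes, which are not independent replicates). Quantile normalization moved the median of all genes to 0.11, from 0.01, and gave 3609 rises and 2667 falls over all genes, and scaling to a common sum gave 2279 and 3178. FPKM carries no depth, so members under 1 FPKM are limited by counts that are not known.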

Other observations

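Most of the 7 genes of the vascular lists that were higher in the tumours did not follow the order of tumours seen in most members. This was noticed after the values were seen. Of these 7 genes, 6 had their highest tumour value in tumour 3, the library with the lowest value of 31 of the 34 tested members. The share of all tested genes with their highest tumour value in tumour 3 was not counted. Pgf, the placental growth factor that binds the VEGF receptor Flt1, stood at 19.7, 18.7 and 41.7 FPKM in tumours 1 to 3, Ephb4 at 24.2, 30.1 and 40.3, Kcne3 at 11.4, 8.41 and 18, Anpep at 94.7, 123 and 153 and Pdgfc at 23.2, 23.6 and 30.0. Lrg1 was the exception among the 7, at 407, 421 and 223 FPKM. A highest value in tumour 3 was not particular to genes of the lists that rose. The members Apln, which rose, and Selp, which fell, had it too. So did Flt1, Sox7, Notch4, Efnb2, Dll4 and Calcrl of the lists, which fell or did not pass, while others such as Cldn5 and Tek were lowest there. The mural genes Notch3 and Kcnj8, which encodes a subunit of the pericyte potassium channel, were also highest in tumour 3, Notch3 at 5.53, 9.45 and 20.6 FPKM and Kcnj8 at 3.16, 2.48 and 6.52 FPKM, while the pericyte members Pdgfrb, Cspg4 and Mcam were lowest there.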
